A study of Homo sapiens with 12 samples.

Results

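Platelet-derived growth factor (PDGF) signalling was followed through 7 genes: the ligand genes PDGFA, PDGFB, PDGFC and PDGFD, the receptor kinase genes PDGFRA and PDGFRB, and PDGFRL, which encodes a secreted protein with a sequence resemblance to the receptors. They were taken by name from a table of normalized read counts with 58830 entries. A normalized count is a library's reads on a gene divided by a size factor for that library. All 7 passed a filter on low values (10 or more in at least 3 libraries) and were tested among 20456 genes. Log2 fold changes compare log2(value + 1) between groups in 1 limma fit of all 12 libraries and are given ± SE, and p-values are Benjamini-Hochberg adjusted with a threshold of 0.05; means are given ± SD. The cells were A549, a human lung adenocarcinoma line of epithelial type. Wild type (WT) A549 cells were compared with 1 derivative, named Sm22mut in the labels and in which the site that joins miR-22 to its target SNAI1 was disrupted. Each line was either untreated or given TGFβ at 10 ng/mL to induce a shift from epithelial to mesenchymal state, and RNA was taken on day 5. Each of the 4 groups held 3 libraries that the labels call biological repeats, and the p-values reflect how far those repeats spread. The edit and the derivation of Sm22mut cannot be told apart, and the isoform of TGFβ was not stated.

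PDGFs are secreted as disulfide-linked dimers. PDGF-A and PDGF-B leave the cell after cleavage by furin-like convertases, whereas PDGF-C and PDGF-D carry a CUB domain that extracellular proteases such as the plasminogen activators remove before they can bind a receptor. The receptors α and β are class III receptor tyrosine kinases that dimerize on ligand binding, phosphorylate each other and recruit SH2-domain adaptors. In lung, epithelial and other cells release the ligands, and the receptors are best known from fibroblasts, pericytes and smooth muscle.

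Upstream sequence is shown for the 3 members whose reads rose with TGFβ and for which bases lie before every annotated start: PDGFA, PDGFRA and PDGFRB. The RefSeq promoter table (GRCh38.p14) was matched for these and for PDGFD, whose window lay almost wholly downstream of a GENCODE start. PDGFB and PDGFC were not matched in it. Each run is written 5′ to 3′ on the gene's strand, with matches on either strand to CAGAC (the SMAD box) or GGGCGG (the GC box) in capitals.
PDGFA upstream, chr7:520701-520950, minus strand: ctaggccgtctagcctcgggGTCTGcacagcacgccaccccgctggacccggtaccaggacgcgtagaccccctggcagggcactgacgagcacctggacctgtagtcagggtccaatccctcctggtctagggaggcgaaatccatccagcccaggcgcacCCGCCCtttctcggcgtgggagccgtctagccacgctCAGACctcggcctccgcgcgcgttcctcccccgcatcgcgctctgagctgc
PDGFRA upstream, chr4:54229043-54229096, plus strand: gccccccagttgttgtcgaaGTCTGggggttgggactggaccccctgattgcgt
PDGFRB upstream, chr5:150155873-150156095, minus strand: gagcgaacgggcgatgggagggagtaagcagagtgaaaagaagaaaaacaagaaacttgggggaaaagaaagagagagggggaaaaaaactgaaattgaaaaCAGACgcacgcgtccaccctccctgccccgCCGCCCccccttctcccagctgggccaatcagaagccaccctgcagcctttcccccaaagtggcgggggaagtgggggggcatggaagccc
In the full 250 bases before the most upstream RefSeq start, PDGFA held 2 CAGAC matches and 1 GGGCGG match, PDGFRB held 1 of each, PDGFRA held 1 CAGAC match, and PDGFD held 1 GGGCGG match. Among 34943 RefSeq windows of that length, a match on either strand to the SMAD box occurs in 38% and to the GC box in 42.5%, so such matches are common. The longer SMAD motif CAGACA, which contains the shorter one, occurs in 13.6%, the TATA box written TATAAA in 10.8%, and the AP-1 site written TGACTCA in 4.22%. None of these other 3 motifs was found in the 4 windows. The PDGFA run lies within an exon of the non-coding gene HRAT92, which is transcribed from the opposite strand.

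Libraries held between 84210775 and 111141708 reads. The first principal component of the tested genes held 70.5% of variance and the second 7.89%. Epithelial markers (EPCAM, CDH1 and 4 keratins) summed to between 486508 and 648914 normalized counts in every library, with KRT8 the leading gene in each group. These sums hold opposite moves. With TGFβ 5 of the 6 were lower and 1 was higher in each line. Among all tested genes 30.9% fell and 30.8% rose in WT, and 30.7% and 32.1% in Sm22mut. In WT CDH1 fell from 28540 to 9233, while KRT7 rose from 50218 to 105120. Of the 6 alveolar type 2 markers, SFTPA1 was at 0 in all 12 libraries and SFTPC averaged 1.02 to 3.59 per group. ABCA3 averaged 510 and 1431 in untreated and treated WT and 745 and 1890 in Sm22mut. LAMP3 averaged 239, 404, 689 and 355 in the same order. In these bulk libraries fewer cells of a type and less RNA per cell cannot be told apart.

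Levels were first set beside each other as normalized counts per kb of exon, so that genes of different length can be compared. In untreated WT the order of mean levels per kb was PDGFD (999), PDGFRL (814), PDGFC (456), PDGFA (146), PDGFB (48.7), PDGFRB (3.12) and PDGFRA (1.64). The library ranges of neighbours in that order did not overlap, so PDGFB was the least abundant ligand and the receptor kinases lay far below every ligand. With TGFβ, WT PDGFB led at 4942 per kb. PDGFRL (726 to 921), PDGFC (718 to 737) and PDGFD (625 to 680) followed, with the first pair overlapping. PDGFA stood at 445, and PDGFRA (41.4) had passed PDGFRB (9.49).

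Sm22mut had another order without treatment. PDGFRL came first at 732 per kb, before PDGFD at 556, PDGFC at 384, PDGFA at 170.5 and PDGFB at 36.2. PDGFRB (2.40 to 4.63) lay above PDGFRA (0.636 to 1.76) there as well. With TGFβ Sm22mut had PDGFB at 5267 per kb. PDGFRL (684 to 839) and PDGFC (680 to 811) overlapped over most of their ranges, and PDGFD (617 to 685) reached the lower edge of both. PDGFA followed at 570.2, its highest library (616.9) just under PDGFD's lowest (617.1). With the longest annotated transcript as the length, an alternative chosen after seeing the data, PDGFD and PDGFRL overlapped in untreated WT. On that scale PDGFA exceeded PDGFD with TGFβ, at 802 against 689 per kb in WT and 1027 against 693 in Sm22mut. In treated Sm22mut the PDGFA mean also lay above those of PDGFC (993) and PDGFRL (969), with overlapping ranges. In treated WT it stayed below both (980 and 1033).

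The make-up of the ligand level differed between untreated and treated libraries in both lines. PDGFB made up 2.95% of the summed ligand level per kb in untreated WT and 73.0% with TGFβ, and 3.18% and 72.8% in Sm22mut. PDGFD held 60.5% in untreated WT (59.0% to 62.3% by library) and 48.5% in untreated Sm22mut (45.4% to 50.02%), and 9.67% and 9.10% with TGFβ. PDGFC held 27.7% and 33.5% without treatment and 10.8% and 10.2% with it. PDGFA's shares were 8.87% and 14.9% untreated and 6.58% and 7.88% treated, and were higher with the longest transcript as length, at 13.3%, 21.2%, 10.3% and 12.3% in the same order. These are shares of transcript level, not of protein.

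**Figure D1:**
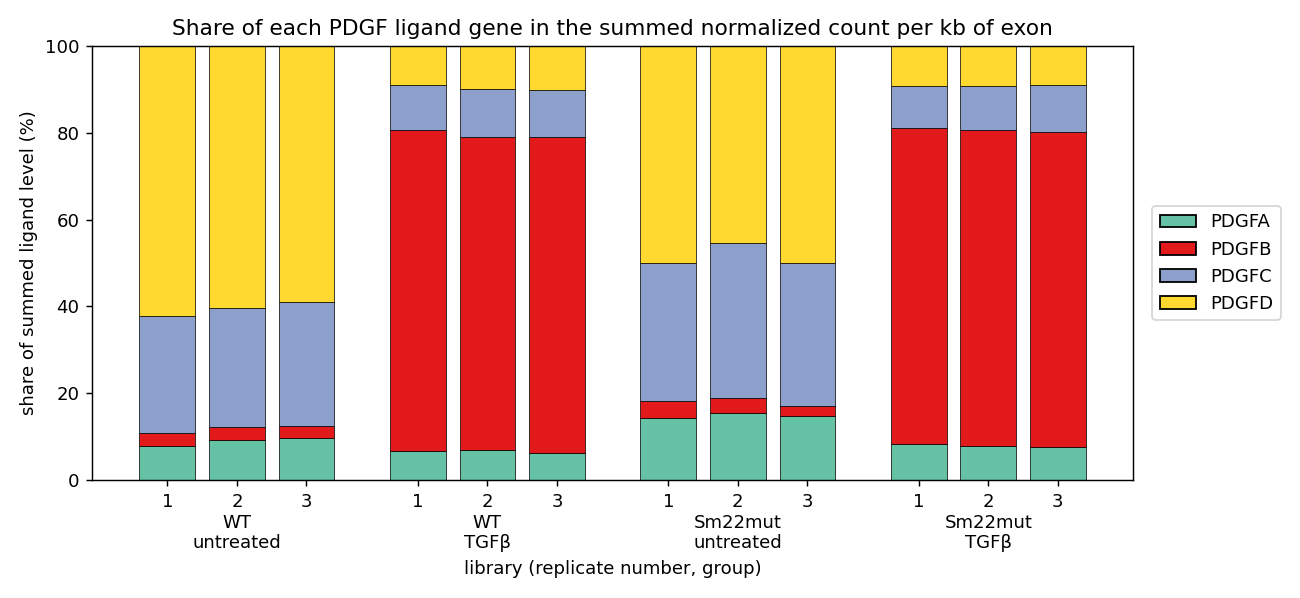
Each bar is 1 library, grouped by line and treatment, and its segments give the share in percent of the summed normalized count per kb of exon held by PDGFA, PDGFB, PDGFC and PDGFD. PDGFD is the largest segment in the untreated bars and PDGFB, at 72.2% to 73.9%, in the treated ones.

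PDGFB (ENSG00000100311.16, GRCh38 chr22:39223359-39244751), which encodes the ligand that binds both receptors, had the largest change of the 7. Its normalized counts were 197, 167 and 185 in untreated WT and 19194, 18126 and 18440.4 with TGFβ. Sm22mut libraries held 168, 142 and 98.9 untreated and 20567, 18362 and 20497 with TGFβ. Treated and untreated libraries lay far apart in both lines, with no library between. The group means rose 101.5-fold in WT, a log2 fold change of 6.66 ± 0.14 (SE; limma adjusted p = 7.45e-16, n = 3 a group), and 145.4-fold in Sm22mut (7.21 ± 0.14, adjusted p = 2.79e-16). By log2 fold change PDGFB ranked 63 and 41 from the highest of 20456 genes.

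Untreated Sm22mut had less PDGFB than untreated WT, by -0.45 ± 0.14 on the log2 scale (limma adjusted p = 0.0176), although the libraries overlapped. That call was lost in a fit of the groups compared alone (adjusted p = 0.139), and without replicate 1 (-0.40, 0.0714) or 3 (-0.45, 0.0506) of untreated WT or replicate 3 of untreated Sm22mut (-0.24, 0.0705). With TGFβ the lines did not differ detectably in PDGFB (0.09 ± 0.14, adjusted p = 0.740, 95% interval -0.20 to 0.38). The difference between the responses, Sm22mut minus WT, was 0.54 ± 0.19 and did not pass (adjusted p = 0.0645). It passed with quantile normalization (0.60, adjusted p = 0.0449), with edgeR (0.51, 0.0495), with DESeq2 (0.53, 0.00794), and without replicate 1 of untreated Sm22mut (0.71, 0.0101).

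PDGFA (ENSG00000197461.13, GRCh38 chr7:497258-520296) encodes the ligand that binds receptor α alone. Normalized counts of the gene were 567, 593 and 655 in untreated WT and 1920.3, 1909 and 1715 with TGFβ. The Sm22mut values were 674, 714 and 735 untreated and 2561, 2185 and 2355 with TGFβ. None of the 4 groups overlapped another, and within each condition Sm22mut was the higher. PDGFA rose 3.05-fold in WT (log2 fold change 1.61 ± 0.09, limma adjusted p = 9.02e-11) and 3.35-fold in Sm22mut (1.74 ± 0.09, adjusted p = 3e-11).

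With TGFβ, PDGFA was higher in Sm22mut by 0.36 ± 0.09 on the log2 scale, 1.28-fold (limma adjusted p = 0.0124). Without replicate 1 of treated Sm22mut this came to 0.30 and did not pass (adjusted p = 0.0663). Without TGFβ the difference was 0.23 ± 0.09 and narrowly missed the threshold (adjusted p = 0.0531). It passed with a filter of 50 (0.23, 0.043), equal totals (0.25, 0.0274), TMM (0.25, 0.0301), edgeR (0.25, 0.0311) and DESeq2 (0.23, 0.043). It also passed without replicate 3 of untreated WT (0.29, 0.0351), replicate 1 or 3 of treated WT (0.23 each, 0.0446 and 0.0365), or replicate 2 of treated Sm22mut (0.23, 0.0484). The responses of the lines were not distinguished (0.13 ± 0.12, adjusted p = 0.522).

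PDGFC (ENSG00000145431.10, GRCh38 chr4:156760454-156971394) encodes a CUB-domain ligand that is latent until cleaved. Untreated WT libraries held normalized counts of 2655, 2378 and 2618, and treated ones 4014, 4120.2 and 4115. Sm22mut libraries held 2032, 2209.6 and 2198 untreated and 4069.5, 3803 and 4534.5 with TGFβ. Untreated libraries of Sm22mut were the lowest, untreated WT came next without overlap, and both treated groups lay together above. PDGFC rose 1.60-fold in WT (0.68 ± 0.07, limma adjusted p = 4.19e-07) and 1.93-fold in Sm22mut (0.94 ± 0.07, adjusted p = 7.26e-09).

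PDGFC was lower in untreated Sm22mut by -0.25 ± 0.07 on the log2 scale, -15.8% (limma adjusted p = 0.0145). This did not pass without replicate 1 (-0.22, 0.0645) or 3 (-0.23, 0.0585) of untreated WT or replicate 1 of untreated Sm22mut (-0.21, 0.0702). With TGFβ the difference between the lines was 0.01 ± 0.07 (adjusted p = 0.931, 95% interval -0.14 to 0.17). The difference between the responses, 0.26 ± 0.10, did not pass (adjusted p = 0.0904), and passed without replicate 2 of treated Sm22mut (0.32, 0.0421).

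PDGFD (ENSG00000170962.12, GRCh38 chr11:103907186-104164379) encodes the other latent ligand, which binds receptor β. It was the one member whose difference in response between the lines passed the threshold in the main fit. The 3 untreated WT libraries had normalized counts of 4672, 3972 and 4142, and treated ones 2664, 2808.5 and 2899.7. Those of Sm22mut were 2434, 2142 and 2546 untreated and 2921, 2633 and 2868 with TGFβ. Untreated WT stood alone above the other 3 groups, which lay between 2142 and 2921. In WT PDGFD fell by 34.5% (log2 fold change -0.61 ± 0.08, limma adjusted p = 4.91e-06), whereas in Sm22mut it rose by 18.2% (0.24 ± 0.08, adjusted p = 0.0132).

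The rise in Sm22mut was small, and it did not pass with equal totals (0.17, 0.0585) or without replicate 2 of untreated Sm22mut (0.17, 0.0848) or replicate 1 of treated Sm22mut (0.21, 0.0528). Untreated, Sm22mut had less PDGFD by -0.84 ± 0.08 on the log2 scale, a difference of -44.3% (limma adjusted p = 1.01e-06). With TGFβ the lines came to 2791 ± 119 and 2807 ± 153 (SD, n = 3), a difference of 0.01 ± 0.08 (adjusted p = 0.972, 95% interval -0.16 to 0.18). The responses differed by 0.85 ± 0.11 (adjusted p = 0.000125), and that call held in 23 of 23 alternatives, with values from 0.76 to 0.90.

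**Figure D2:**
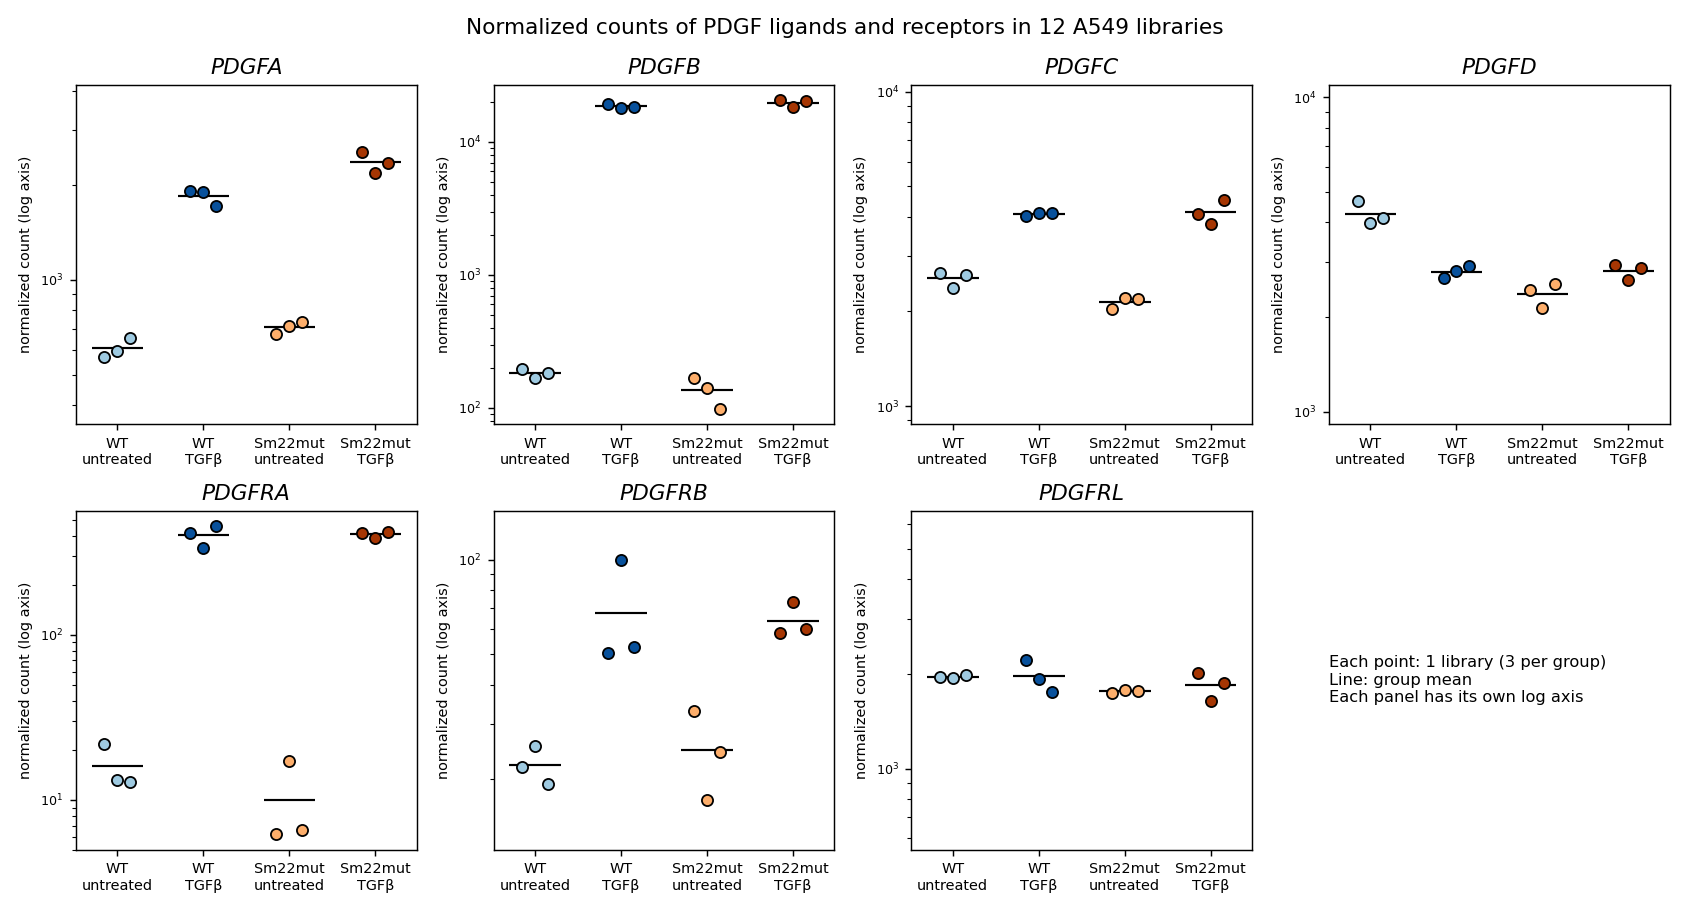
Points are normalized counts of the 7 genes in the 12 libraries on log axes, 1 panel a gene, with lines at the group means. PDGFB and PDGFRA show wide gaps between treated and untreated libraries, PDGFD is highest in untreated WT, and PDGFRL is nearly level.

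PDGFRA (ENSG00000134853.11, GRCh38 chr4:54229097-54298247) encodes receptor α. Its normalized counts were 21.9, 13.2 and 12.9 in untreated WT, which rest on 22, 16 and 12 reads, and 417, 335 and 456 with TGFβ. Sm22mut libraries held 6.19, 17.2 and 6.54 untreated, from 6, 16 and 8 reads, and 417, 387 and 421 with TGFβ. The transcript rested on 22 reads or fewer in every untreated library and lay between 335 and 456 in every treated one. PDGFRA rose 25.2-fold in WT (log2 fold change 4.6 ± 0.32, limma adjusted p = 2.69e-09) and 40.95-fold in Sm22mut (5.36 ± 0.32, adjusted p = 3.44e-10), ranking 232 and 152 from the highest. With a pseudocount of 10 in place of 1 the log2 fold changes were 3.99 and 4.43.

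No difference between the lines in PDGFRA passed the test. It was -0.73 ± 0.32 without TGFβ (limma adjusted p = 0.0937) and 0.03 ± 0.32 with it (adjusted p = 0.973, 95% interval -0.65 to 0.71), and the responses differed by 0.76 ± 0.45 (adjusted p = 0.281). Replicate 2 of untreated Sm22mut, the one with 16 reads, decided the first and last of these. Without it they were -1.17 (adjusted p = 0.00388) and 1.2 (adjusted p = 0.0333).

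PDGFRB (ENSG00000113721.13, GRCh38 chr5:150113837-150155872) encodes receptor β. Normalized counts were 21.9, 25.5 and 19.3 in untreated WT and 50.6, 99.7 and 53.0 with TGFβ. The Sm22mut values were 33.0, 17.2 and 24.5 untreated and 58.5, 73.2 and 60.3 with TGFβ. Every treated library lay above every untreated one, and replicate 2 of treated WT stood well above its group. PDGFRB rose 3.04-fold in WT (1.5 ± 0.32, limma adjusted p = 0.000703) and 2.57-fold in Sm22mut (1.37 ± 0.32, adjusted p = 0.00146). The differences between the lines were 0.12 ± 0.32 untreated (adjusted p = 0.821) and -0.02 ± 0.32 with TGFβ (adjusted p = 0.985). Their intervals, -0.57 to 0.80 and -0.70 to 0.67, leave room for sizeable differences at 16 to 104 reads a library. The ratio of PDGFRA to PDGFRB per kb was 0.379 to 0.733 in untreated WT and 2.46 to 6.32 with TGFβ, and 0.138 to 0.733 and 3.87 to 5.22 in Sm22mut, so the order of the receptors turned in all 6 treated libraries.

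PDGFRL (ENSG00000104213.12, GRCh38 chr8:17576433-17644071) is the one member for which no comparison passed. Its normalized counts were 1963, 1938 and 1982 in untreated WT and 2218, 1934 and 1749.9 with TGFβ. Sm22mut libraries held 1745, 1775 and 1770.4 untreated and 2021, 1647 and 1869 with TGFβ. Treated libraries spread around the untreated ones in both lines. The log2 fold change was 0.00 ± 0.09 in WT (limma adjusted p = 0.986, 95% interval -0.19 to 0.18) and 0.06 ± 0.09 in Sm22mut (adjusted p = 0.564, -0.13 to 0.25). Untreated libraries of Sm22mut all lay below those of WT (-0.15 ± 0.09, adjusted p = 0.204), which passed only in a fit of those 2 groups alone (adjusted p = 0.0198).

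Across the family, TGFβ in WT raised 5 of 7 members, where 30.8% of all tested genes were called higher, and lowered 1, where 30.9% were called lower (61.7% either way). The median log2 fold change of the members was 1.5 and that of all tested genes 0.02. In Sm22mut 6 members rose (32.1% of all genes) and 0 fell (30.7%; 62.8% either way), with a median of 1.37 against 0.03. Without TGFβ Sm22mut had 0 members higher (14.3% of all genes) and 3 lower (17.5%; 31.8% either way), the ligands PDGFB, PDGFC and PDGFD, with a median of -0.25 against 0.00. With TGFβ 1 member, PDGFA, was higher (7.38%) and 0 were lower (4.32%; 11.7% either way), with both medians at 0.01. For the difference in response 1 member, PDGFD, was called higher (10.6%) and 0 lower (6.02%; 16.6% either way), with a median of 0.26 against 0.02. The 2 treatment responses rest on separate libraries, while each also shares libraries with the comparisons between lines.

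**Figure D3:**
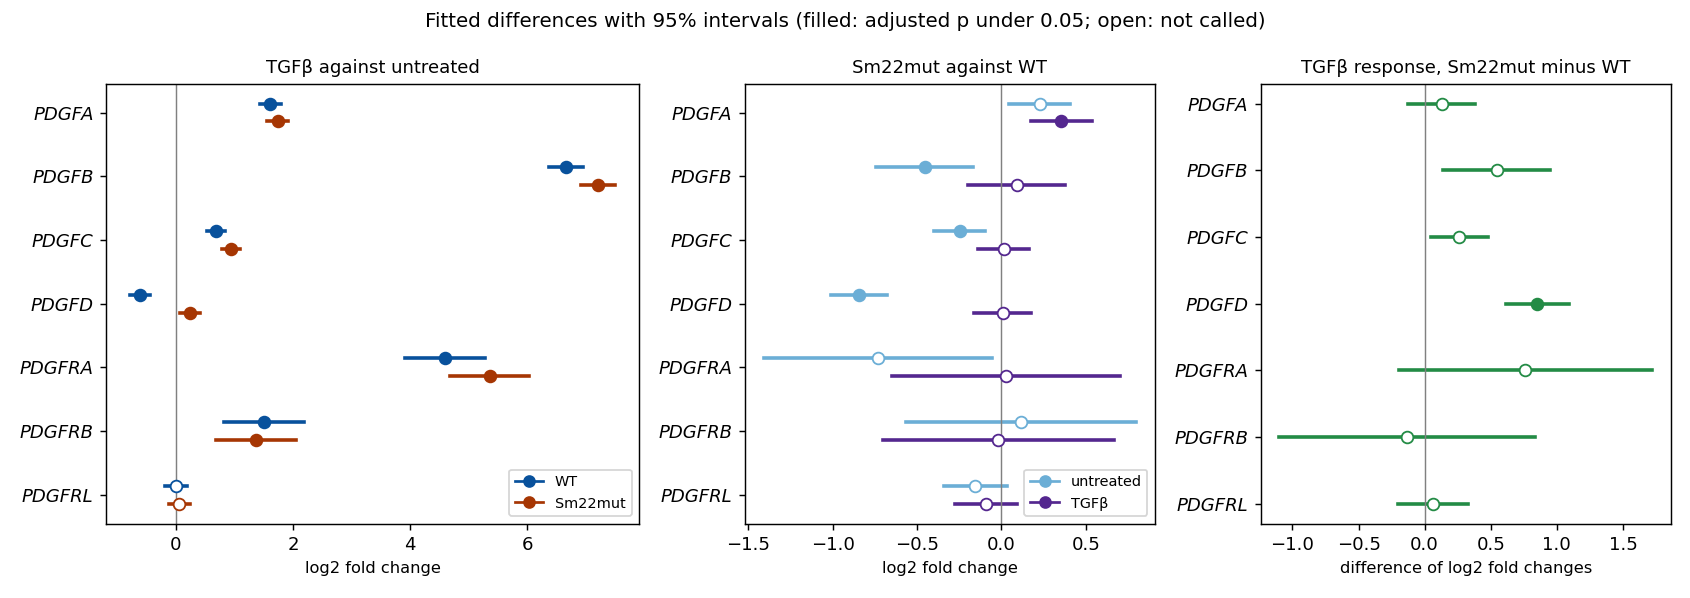
Points are fitted log2 fold changes of the 7 genes with 95% intervals, filled where the adjusted p is under 0.05: TGFβ against untreated by line (left), Sm22mut against WT by condition (middle), and the difference between the responses (right). PDGFB stands at 6.66 and 7.21 on the left, and PDGFD, at 0.85, is the 1 filled point on the right.

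Genes on or beside the members' loci were read for comparison, since no source used here says if reads were assigned by strand. HRAT92, the non-coding gene that starts opposite PDGFA, rose with it, from 15.3 ± 0.60 to 49.1 ± 13.8 in WT (log2 fold change 1.59 ± 0.31, limma adjusted p = 0.000332) and from 21.6 ± 6.01 to 50.5 ± 5.23 in Sm22mut (1.22 ± 0.31, adjusted p = 0.00274). FIP1L1 and CHIC2, neighbours of PDGFRA on chromosome 4, fell in both lines while PDGFRA rose, FIP1L1 by -0.85 ± 0.07 and -1.07 ± 0.07 and CHIC2 by -0.81 ± 0.09 and -0.51 ± 0.09. MTUS1, whose end overlaps that of PDGFRL on the opposite strand, fell by -1.09 ± 0.08 in WT and -0.68 ± 0.08 in Sm22mut. DDI1, which lies within the PDGFD locus on the other strand, was at 0 in all 12 libraries. Antisense RNAs annotated at PDGFB, PDGFC and PDGFD, and the gene AC058822.1, which overlaps PDGFRA on its own strand, were not analysed here, so reads of these members could include theirs.

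Likeness was described by Pearson's r of log2 values over the 12 libraries, which share the treatment and line groups, among genes with a mean of at least 100. PDGFB lay closest to ESAM (r = 0.999), PODXL (0.999) and CHST11 (0.998), and 1612 genes had r over 0.95 with it. For PDGFRA the closest were COL15A1 (0.996), NEURL3 (0.996) and DOCK10 (0.993), with 1366 genes over 0.95. PDGFA lay closest to DNER (0.998; 1220 genes over 0.95) and PDGFC to PKIA (0.994; 1196 genes). So large a number of alike genes marks these profiles as common in the table.

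PDGFD had a rarer profile, with 10 genes over 0.95, among them NAB1 (r = 0.9748) and HNRNPR (0.965). NAB1, a corepressor of EGR transcription factors, averaged 14585 in untreated WT against 8303, 6658 and 8579 in treated WT and untreated and treated Sm22mut. PDGFRB had 5 such genes, led by SLC27A1 (0.973), and PDGFRL had 1, C19orf43 (0.965).

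Genes that release PDGF ligands were read next. Of 11 tested genes of ligand processing and its inhibitors, TGFβ raised 7 and lowered 2 in WT (median log2 fold change 0.647) and raised 7 and lowered 1 in Sm22mut (median 0.605). Over all tested genes 30.8% rose and 30.9% fell in WT, and 32.1% and 30.7% in Sm22mut. FURIN, the convertase that cleaves PDGF-A and PDGF-B, rose from 9564 ± 357 to 35067 ± 592 in WT (1.87 ± 0.06) and from 19013 ± 1096 to 40429 ± 2372 in Sm22mut (1.09 ± 0.06); it was named after its values were seen. PCSK5, a second convertase, rose by 2.84 ± 0.11 and 2.63 ± 0.11. PLAT, the tissue plasminogen activator known to cleave PDGF-C, rose from 20.6 ± 5.98 to 359.7 ± 30.6 in WT and from 17.3 ± 1.92 to 571 ± 83.5 in Sm22mut. PLAU, the urokinase known to cleave PDGF-D, rose from 1278 ± 73.8 to 9686 ± 417 and from 3927 ± 122 to 20319 ± 957.

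SERPINE2, a serpin that inhibits plasminogen activators, rose as well, by 6.11 ± 0.07 in WT and 5.66 ± 0.07 in Sm22mut. The group thus holds activators and an inhibitor of cleavage that rose together, and activity was not measured. Without TGFβ, 6 of the 11 were higher in Sm22mut than in WT (14.3% of all tested genes) and 0 were lower (17.5%).

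All members called among the 8 ligand binding proteins and coreceptors rose, 6 in WT (median 2.42; 30.8% of all tested genes) and 6 in Sm22mut (median 2.28; 32.1%). SPARC, a matricellular protein that binds PDGF-B, rose from 23.0 ± 11 to 4671 ± 706 in WT and from 13.9 ± 4.0 to 3297 ± 364 in Sm22mut. THBS1, thrombospondin 1, rose by 3.73 ± 0.09 and 4.52 ± 0.09, and IGFBP7 by 4.74 ± 0.20 and 5.35 ± 0.20. NRP2 rose by 3.37 ± 0.09 and 3.08 ± 0.09 and LRP1, a coreceptor of receptor β, by 1.47 ± 0.18 in both lines. NRP1, a coreceptor for PDGF ligands, did not pass in WT (0.02 ± 0.06, limma adjusted p = 0.828; -0.0029 with equal totals) and rose in Sm22mut (0.33 ± 0.06, adjusted p = 8.15e-05).

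The intracellular genes were mixed. Of 26 tested adaptors and effectors, 11 rose and 9 fell in WT (median 0.05) and 13 rose and 7 fell in Sm22mut (median 0.25), against all-gene medians of 0.02 and 0.03 and shares called either way of 61.7% and 62.8%. PLCG1, phospholipase Cγ1, rose by 1.47 ± 0.07 and 2.25 ± 0.07, and GAB1, a docking protein, by 0.94 ± 0.12 and 1.81 ± 0.12. GRB10 rose by 1.83 ± 0.05 and 1.66 ± 0.05, whereas its relative GRB14 fell, by -1.21 ± 0.06 and -0.83 ± 0.06. STAT5A fell in WT, from 152 ± 9.91 to 63.5 ± 16.9, and averaged 92.6 ± 19.3 and 110.2 ± 13.9 in untreated and treated Sm22mut, a difference that did not pass (0.26 ± 0.22, limma adjusted p = 0.327).

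Of 12 tested negative regulators of the receptors, 4 rose and 6 fell in WT (median -0.09), and 7 rose and 5 fell in Sm22mut (median 0.24), beside the same 61.7% and 62.8% of all tested genes. PTPN2, a phosphatase that acts on receptor β, fell by -1.51 ± 0.07 and -0.81 ± 0.07. PTPRJ, another phosphatase of receptor β, rose by 1.22 ± 0.07 and 1.12 ± 0.07, as did PTPRK, by 1.32 ± 0.08 and 1.51 ± 0.08. SLC9A3R1, which encodes the scaffold NHERF1, fell by -1.40 ± 0.07 and -1.17 ± 0.07, and the adaptor SH2B3 rose by 1.00 ± 0.11 and 1.39 ± 0.11.

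**Figure D4:**
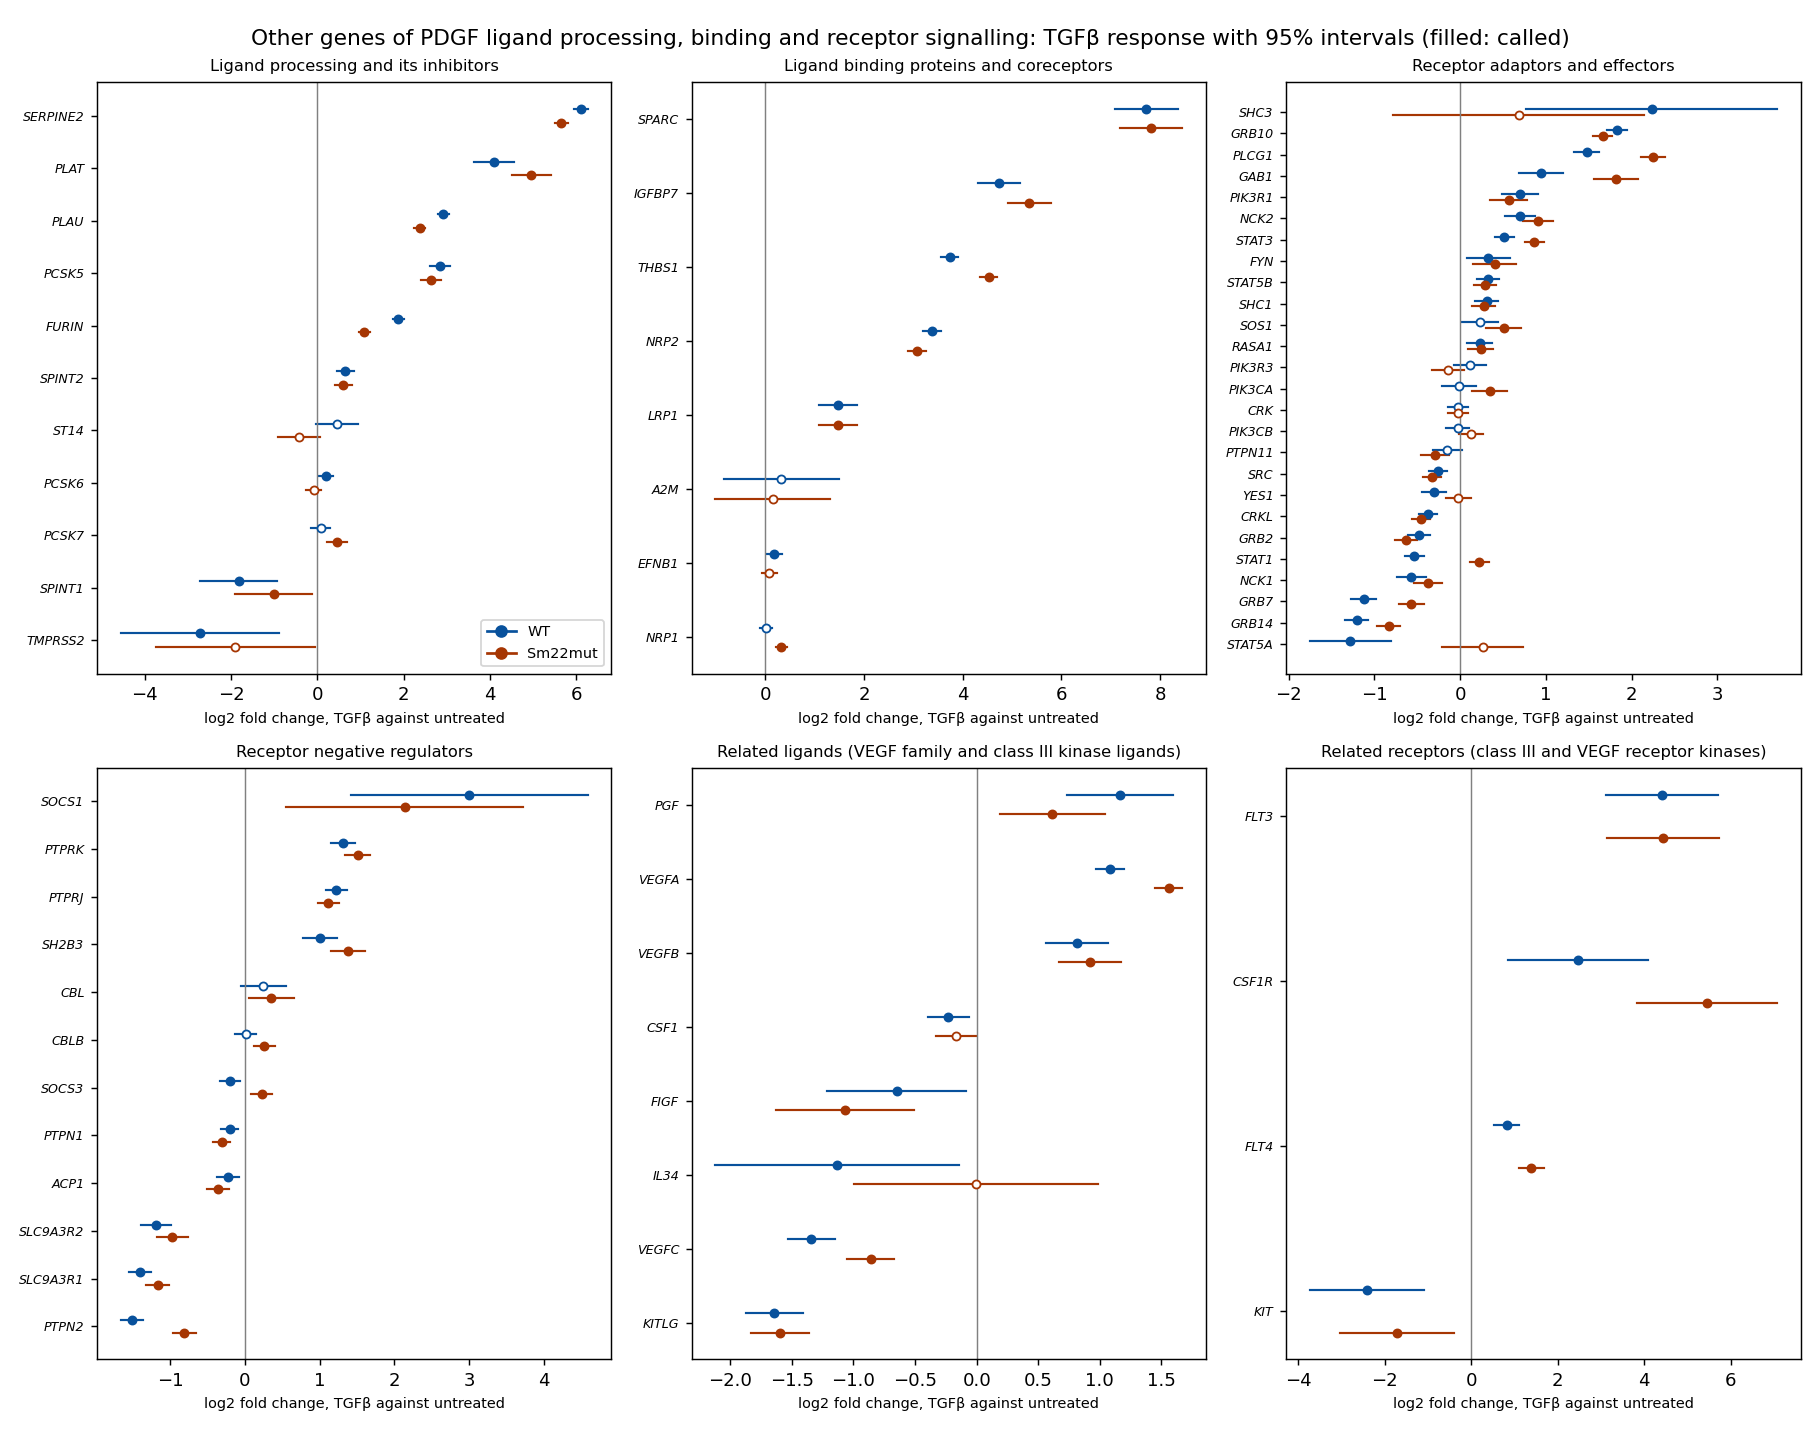
Points are fitted log2 fold changes of TGFβ against untreated with 95% intervals for the tested genes of 6 lists, in WT and Sm22mut, filled where the adjusted p is under 0.05. SPARC lies above 7 in both lines, while the adaptor and negative regulator panels spread to both sides of 0; FLT3 was at 0 in all untreated libraries and TMPRSS2 in all treated WT ones, so the positions of these 2 depend on the pseudocount.

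Markers of cells known for PDGF genes were read beside these results. TGFβ raised 30.8% and lowered 30.9% of all tested genes in WT, and 32.1% and 30.7% in Sm22mut. The marker counts below cannot be compared with these shares, because some markers passed the filter only through the groups where they were high. FAP, TEK and ROBO4 needed treated libraries to pass, and PECAM1 untreated ones, so their direction was set by the filter. Markers that were low in all groups were not tested. The 10 fibroblast markers summed to 3022 to 3227 in untreated WT and 5427 to 6443 with TGFβ, and to 2389 to 2564 and 5792 to 6746 in Sm22mut, with 5 of the 6 tested ones higher and 1 lower in each line, FBLN1 the leading gene in each group and PDPN, DPT and PI16 at 0 in all untreated libraries. The 8 endothelial markers summed to 144.5 to 178.3 in untreated WT and 1431 to 1692 with TGFβ, and to 166.3 to 205.3 and 1437.5 to 1696.5 in Sm22mut. Of the 5 that were tested, 3 rose in both lines, and 1 fell in WT and 2 in Sm22mut. ESAM, the gene most like PDGFB, made up 1478 and 1508 of these treated sums. TEK averaged 0 and 26.5 in untreated and treated WT and 0.688 and 31.7 in Sm22mut, and ROBO4 averaged 0.665, 30.5, 0 and 20.3 in the same order. CDH5 averaged 10.3 or less in every group, and PECAM1 fell from 104 to 1.76 in WT. The 10 pericyte and smooth muscle markers gave 7938 to 9015 and 6903 to 7227 in WT, and 6675 to 7444 and 6878 to 7522 in Sm22mut. These sums hold opposite moves, with 5 of the 10 higher and 2 lower in WT and 5 higher and 3 lower in Sm22mut. In WT the smooth muscle gene TAGLN rose from 194 to 2692 and MCAM from 160.1 to 650.1, while NOTCH3 fell from 7037 to 1912 and DES from 93.0 to 17.9. Leukocyte markers summed to 58.0 to 147.5 in all, and platelet markers to 362.9 to 616.1 with PF4 at 0 throughout. Their part in the PDGF results was not tested.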

How the data were processed

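RNA-seq was analysed in 12 libraries, 3 in each of 4 groups. The authors deposited 1 table of normalized counts per gene (unit signal, reads divided by a size factor). The submitters' processing notes name the build GRCh38.p14 and the tools featureCounts, DESeq2, HISAT2 and StringTie, with no versions; the settings and annotation release were not stated. All values were whole multiples of a step per library (100% whole within 0.01), which gave the reads and so the depth; 28 entries carry names turned into dates.

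Genes that reached 10 in 3 or more libraries were tested on log2(value + 1) by limma-trend (limma 3.58.1, R 4.3.3) in 1 fit of 4 group means, with 5 two-sided comparisons, Benjamini-Hochberg adjustment over 20456 genes and a threshold of 0.05. Fold changes on this scale understate those of low genes. Values after ± are SE for log2 fold changes and SD for means (n = 3). Folds and percentages are of group means. The test was checked on simulated data in which far fewer genes changed than were called with TGFβ here. That check therefore does not cover the setting of the TGFβ comparisons.

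The members, lists and naming rule were chosen with earlier results of these data known. The rule named all members, up to 6 called genes per list by largest TGFβ response, neighbours of members, and the 3 genes most like each member; some are not described, and items withheld from the text are not reported here. Alternatives covered the pseudocount, filter, scaling, robust variance, replicate block, the groups compared alone, each library left out, and edgeR 4.0.16 and DESeq2 1.42.0 on the reads. Exon lengths and positions came from GENCODE 29 (GRCh38). Motifs were searched in the 250 bases before a start only.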

Additional observations from a re-analysis of the deposited data

Results flagged for a closer look

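The lines differed in their TGFβ response for 14 of the 43 members and named genes. The test was the interaction term of the limma fit across all genes (n = 3 libraries a group), where 16.6% of all tested genes were called. The named genes were picked largely by the size of their TGFβ response in these data, and FURIN after its values were seen. These shares therefore cannot be compared. Among the PDGF genes the call was for PDGFD, by 0.85 ± 0.11 on the log2 scale (adjusted p = 0.000125). All 3 treated libraries of WT lay below, and all 3 of Sm22mut above, their untreated counterparts. PDGFD stood at 4262 ± 365 in untreated WT and between 2374 and 2807 on average elsewhere.

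Among genes that process the ligands, the response was smaller in Sm22mut for FURIN (-0.79 ± 0.09, adjusted p = 2.81e-05), PLAU (-0.55 ± 0.09, 0.000496) and SERPINE2 (-0.45 ± 0.10, 0.00719). All 3 also had higher untreated means in Sm22mut. Among binding proteins it was larger for THBS1 (0.79 ± 0.12, adjusted p = 0.000389) and NRP1 (0.31 ± 0.08, 0.0127).

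Downstream of the receptors STAT5A fell in WT and did not pass in Sm22mut (difference 1.54 ± 0.32, adjusted p = 0.00332). The rise was larger in Sm22mut for GAB1 (0.87 ± 0.17, 0.00261) and PLCG1 (0.78 ± 0.09, 6.61e-05), and the fall was smaller for PTPN2 (0.70 ± 0.10, 0.000259) and GRB14 (0.37 ± 0.09, 0.00927). VEGFA (0.47 ± 0.08, adjusted p = 0.000525), VEGFC (0.48 ± 0.13, 0.0173) and MTUS1 (0.41 ± 0.11, 0.0182) complete the set. The call was lost for VEGFC without replicate 3 of treated Sm22mut (0.44, adjusted p = 0.0536). For MTUS1 it was lost with equal totals (0.35, 0.0606), without replicate 2 of untreated Sm22mut (0.39, 0.0504) or without replicate 3 of treated Sm22mut (0.39, 0.0526).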

How the results depend on the processing

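Over all alternatives, the values of the 7 members kept direction and side of the threshold in 776 cases; 11 calls were lost, 18 gained and 28 values changed sign. The sign changes were all of differences that passed no test. With TGFβ, the line difference became -0.0186 (equal totals), -0.0077 (quantile) and -0.0535 to 0.0733 (libraries left out) for PDGFC; -0.0255, -0.0193, -1e-04 (edgeR) and between -0.0252 and 0.0534 with libraries left out for PDGFD; -0.003, -0.0253 and -0.0966 to 0.1266 for PDGFRA; and -0.1888 to 0.2942 for PDGFRB. Untreated PDGFRB ran from -0.1036 to 0.3491. In the interaction PDGFRB ran from -0.366 to 0.1778 and PDGFRL from -0.0181 to 0.1529, or -3e-04 with quantile normalization. The TGFβ response of PDGFRL became -0.011 (equal totals) and -0.007 to 0.1404 in Sm22mut, and 0.0019 (quantile), 0.0071 (DESeq2) and -0.0919 to 0.079 in WT. NRP1 in WT reached -0.0029 (equal totals) and -0.0132 to 0.0506.

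Line differences with TGFβ covered 2394 genes, 1183 in a fit of those groups alone and 1386 to 3841 with a library left out, and called 0 to 1 members. Untreated, 1 member in place of 0 was called higher (PDGFA) with a filter of 50, equal totals, TMM, edgeR or DESeq2; libraries left out gave 0 to 1 higher, 1 to 4 lower and 1 to 4 in all. For the interaction 2 members were called in place of 1 with quantile normalization, the replicate block, edgeR or DESeq2 (PDGFB), and 1 to 2 with a library left out. The replicate block gave PDGFB an adjusted p of 0.0317. Libraries of the same number had correlations of deviations from -0.031 to 0.129 (18 pairs, 2 over 0.1), and those of other numbers from -0.147 to 0.152. Of the 12 libraries 5 correlated best with their own number. The numbers were therefore not taken to pair the libraries, and a shared batch was not tested. Quantile normalization moved the all-gene median by -0.11 for TGFβ in Sm22mut; other scalings moved it by less than 0.1. Among the lists, genes lowered by TGFβ numbered 1 in place of 2 (processing, WT, pseudocount of 10 or some libraries left out; TMPRSS2 came to -2.36, adjusted p = 0.0551, without replicate 2 of untreated WT), 2 to 3 in place of 5 (related ligands, WT, no filter, groups compared alone or some libraries left out), 0 in place of 1 (related receptors, Sm22mut, no filter) and 0 (no filter) or 3 (quantile) in place of 1 (processing, Sm22mut). PDGFRA and PDGFRB are limited by depth: untreated values rest on 6 to 32 reads.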

Other observations

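PDGFs belong to a wider family with the VEGFs, and their receptors to the class III kinases. The 8 related ligands tested belong to the VEGF family or bind class III kinases. TGFβ raised 3 of them and lowered 5 in WT (2 to 3 lowered under some alternatives). In Sm22mut it raised 3 and lowered 3. Over all tested genes 61.7% in WT and 62.8% in Sm22mut were called either way. VEGFA, the main angiogenic member, rose from 11412 ± 87.8 to 24219 ± 725 in WT (log2 fold change 1.09 ± 0.05) and from 10028.5 ± 561 to 29495 ± 118 in Sm22mut (1.56 ± 0.05). VEGFC, a ligand of lymphatic growth, fell by -1.34 ± 0.09 and -0.86 ± 0.09. KITLG, the ligand of KIT, fell from 2806 ± 183 to 904.5 ± 139.8 and from 2879 ± 206 to 956 ± 128. PGF, placental growth factor, rose by 1.16 ± 0.20 and 0.62 ± 0.20; the second did not pass without replicate 3 of treated Sm22mut (0.48, limma adjusted p = 0.0766) or with quantile normalization (0.43, 0.085).

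Of the 6 related receptors 4 passed the filter, and of these 3 rose and 1 fell in both lines. Over all tested genes 30.8% rose and 30.9% fell in WT, and 32.1% and 30.7% in Sm22mut. The receptor counts cannot be compared with these shares, because FLT3 and CSF1R passed the filter only through treated libraries. FLT4, the VEGF-C receptor, rose from 197 ± 15.5 to 350.5 ± 24.0 in WT and from 126.5 ± 13.5 to 334 ± 31.7 in Sm22mut. FLT3 was at 0 in all 6 untreated libraries and averaged 21.5 ± 9.75 and 21.9 ± 8.90 with TGFβ. CSF1R, the neighbour of PDGFRB on chromosome 5, averaged 10.4 ± 9.14 and 52.2 ± 21.7 in WT and 2.86 ± 4.95 and 93.0 ± 9.80 in Sm22mut. Its rise, 2.47 and 5.46 on the log2 scale, rests on few reads. In WT it came to 3.10 without replicate 2 of untreated WT, and to 1.88 without replicate 1, which did not pass (limma adjusted p = 0.0566); in Sm22mut it came to 6.55 without replicate 2 of untreated Sm22mut. KIT, another receptor of the class, fell by -2.41 ± 0.62 and -1.72 ± 0.62 from means of 11.5 and 30.4; the first came to -1.80 without replicate 1 of treated WT. In Sm22mut that did not pass with no filter (adjusted p = 0.0545), nor without replicate 1 (-1.35, 0.114) or 2 (-1.66, 0.0664) of the untreated or replicate 1 (-1.35, 0.1) of treated Sm22mut.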
